A study of Mus musculus with 28 samples.

Results

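The Slc25 genes encode mitochondrial solute carriers, a family of membrane proteins that were taken here as every gene of the deposited RNA-seq table whose symbol starts with Slc25a and a number, leaving out names that contain -ps. The rule found 47 members among 55450 genes. The RNA came from the C10 line of mouse Pre-B cells, in which rat C/EBPα is fused to the estrogen receptor hormone-binding domain (C/EBPαER). It was taken before induction (0h) and 1h, 12h and 48h after 100 nM β-estradiol, 10 nM IL-3 and CSF-1 were added. There were 3 libraries for each of the 4 time points, labelled bioRep 1 to 3. All time points share the C10 line and the transgene, so 0h is an uninduced state of 1 engineered cell line and not a primary Pre-B cell. No library received the cytokines without β-estradiol, and the effects of these additions cannot be told apart. The labels do not say whether replicates came from separate cultures, so p-values measure the spread between these libraries. In bulk RNA, fewer cells of a type and less RNA per cell cannot be told apart.

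Carriers of this family sit mostly in the inner mitochondrial membrane and exchange nucleotides, phosphate, carboxylates, amino acids, cofactors and metal ions between the matrix and the cytosol. They are made in the cytosol, pass the outer membrane through the TOM complex and are inserted by the TIM22 complex with the help of small Tim chaperones. ADP/ATP translocases and the phosphate carrier feed ATP synthase, while the aspartate/glutamate and 2-oxoglutarate/malate carriers form the malate-aspartate shuttle that moves reducing equivalents into the matrix. Macrophages are known for using exported citrate in lipid synthesis and for high iron turnover.

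Labels of the time points were compared with marker genes first. All 7 Pre-B markers (among them Vpreb1 and Igll1) were lower at 48h than at 0h and all 8 macrophage markers (among them Itgam and Csf1r) were higher. Summed TPM (a level per length of transcript that sums to the same total in each library) of the Pre-B markers lay between 270.18 and 306.12 in the 0h libraries and between 23.95 and 34.54 in those of 48h. The summed macrophage markers lay between 12.51 and 13.19 before induction and between 527.51 and 624.21 after 48h. The 12 markers of other blood cells summed to at most 1.45 TPM in any library, and Cd3e, Ncr1, Pf4 and Mcpt8 were at 0 in all libraries. Rows AY036118 and CT010467.1 took 70.3 to 82.9% of all TPM, and the share differed between libraries. TPM keep no depth, and the number of reads behind a value was not used here.

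The part of these rows in the scale of a TPM was not tested, and each count is given for TPM as deposited and after median-of-ratios scaling, which sets the typical gene equal between libraries. The median log2 fold change of all 16415 tested genes against 0h in deposited TPM was 0.59 after 1h, 0.34 after 12h and -0.18 after 48h, and -0.62 for 48h against 12h. After scaling the same medians were 0.02, 0.07, 0.07 and -0.01. Fold changes are on the log2(TPM + 0.1) scale, which understates the change of low genes, and a gene is called higher or lower at an adjusted p under 0.05 over all tested genes.

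Start regions are shown for 4 members whose levels the following results turn on, as the 250 bases before the RefSeq transcription start on GRCm38.p6, 5′ to 3′ on the gene's strand. Slc25a12 and Slc25a13 are the 2 aspartate/glutamate carriers, which moved apart, Slc25a1 is the citrate carrier and Slc25a28 is an iron carrier. Capitals mark an E-box (CACGTG, a core that MYC and USF bind) or a CCAAT box (CCAAT, the core of NF-Y sites) on either strand.
Slc25a12, chr2:71367756-71368005, minus strand: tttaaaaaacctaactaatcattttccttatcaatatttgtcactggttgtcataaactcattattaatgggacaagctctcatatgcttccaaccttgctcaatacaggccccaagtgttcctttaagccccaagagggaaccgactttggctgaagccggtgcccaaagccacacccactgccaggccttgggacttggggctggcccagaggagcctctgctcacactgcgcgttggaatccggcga
Slc25a13, chr6:6217174-6217423, minus strand: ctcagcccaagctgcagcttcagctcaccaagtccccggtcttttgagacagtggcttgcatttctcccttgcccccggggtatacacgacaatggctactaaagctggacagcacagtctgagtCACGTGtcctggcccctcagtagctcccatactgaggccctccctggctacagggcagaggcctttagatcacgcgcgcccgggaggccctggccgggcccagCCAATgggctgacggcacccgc
Slc25a1, chr16:17928220-17928469, minus strand: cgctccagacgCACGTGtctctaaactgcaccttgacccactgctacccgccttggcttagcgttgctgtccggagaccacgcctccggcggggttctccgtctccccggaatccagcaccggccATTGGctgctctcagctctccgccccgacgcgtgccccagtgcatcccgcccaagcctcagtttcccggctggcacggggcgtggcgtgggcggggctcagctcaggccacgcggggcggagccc
Slc25a28, chr19:43674882-43675131, minus strand: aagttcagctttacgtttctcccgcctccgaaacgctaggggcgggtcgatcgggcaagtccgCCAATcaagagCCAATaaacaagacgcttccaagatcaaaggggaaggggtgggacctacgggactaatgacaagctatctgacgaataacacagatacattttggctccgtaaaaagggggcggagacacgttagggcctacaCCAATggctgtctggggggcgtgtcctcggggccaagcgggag
The window of Slc25a13 held an E-box that begins 125 bases before the start and a CCAAT box 22 bases before it. Slc25a1 held an E-box at 239 and a CCAAT box, read on the other strand, at 125 bases before the start. Slc25a28 held 3 CCAAT boxes, at 187, 176 and 43 bases before the start, and Slc25a12 held no match. RefSeq start windows, each running from 250 bases before to 50 bases after a start, were matched to 36 of the 47 members (46 windows). An E-box stood in 8 of these 46 windows (17.4%) and in 7.15% of all 32851 windows. Its 7 genes were Slc25a1, Slc25a13, Slc25a14, Slc25a15, Slc25a31, Slc25a33 and Slc25a36. A CCAAT box stood in 22 windows (47.8%) against 37.4% of all. The NRF1 core GCGCATGC, on either strand, stood in 2 (4.35%) against 2.71%, and the C/EBP palindrome TTGCGCAA in 0 against 0.183%. The 4 motifs do not overlap one another in their letters as searched. A match is a description of letters and not of a bound site.

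Of the 47 members, 38 had a mean TPM of at least 0.1 and were tested. Slc25a21, Slc25a24, Slc25a31, Slc25a41 and Slc25a54 were listed at 0 in all 12 libraries, and Slc25a27, Slc25a34, Slc25a43 and Slc25a48 reached at most 0.4 TPM. Slc25a31 is the germ cell ADP/ATP translocase. A mean of at least 1 TPM was reached by 25 members, and 13 of the tested members stayed below it. The excluded pseudogene row Slc25a5-ps reached 0.08 TPM.

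At 0h the highest member was Slc25a5 (ANT2, an ADP/ATP translocase) at 61.9 ± 6.58 TPM (SD, n = 3), followed by Slc25a3, the phosphate carrier, at 39.8 ± 2.76 (SD, n = 3). Their libraries did not overlap. Slc25a1 followed at 12.8 TPM, Slc25a4 (ANT1) at 10.9 and the glutathione carrier Slc25a39 at 9.38, and neighbours in this order overlapped between libraries. At 48h Slc25a3 stood at 17.9 ± 4.10 TPM and Slc25a5 at 13.2 ± 4.02 (SD, n = 3), with overlapping libraries. The iron carrier Slc25a37 came next at 6.71 TPM, overlapping Slc25a1 at 6.30, whereas at 0h Slc25a37 was outside the 10 highest members.

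The summed TPM of the members, taken by symbol, was 195 ± 17.5 before induction and 241 ± 14.3 after 1h (SD, n = 3). It was 191 ± 33.1 after 12h and 94.3 ± 18.3 after 48h (SD, n = 3). After scaling the sums were 210, 164, 161 and 134. The 48h libraries (79.85, 88.13 and 114.81 TPM) lay below every 0h library (214.35, 189.95 and 180.33). Slc25a3 and Slc25a5 together made 52.2% of the sum before induction, then 53.0%, 44.4% and 32.8% after 1h, 12h and 48h, a share that no scaling between libraries can move. Ucp2, an uncoupling protein of the same family with another name, is not in these sums. Its mean was 178 TPM before induction, then 226, 162 and 124 after 1h, 12h and 48h. Sums that include Ucp2 would be higher, and the share of Slc25a3 and Slc25a5 lower, at every time point.

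**Figure D1:**
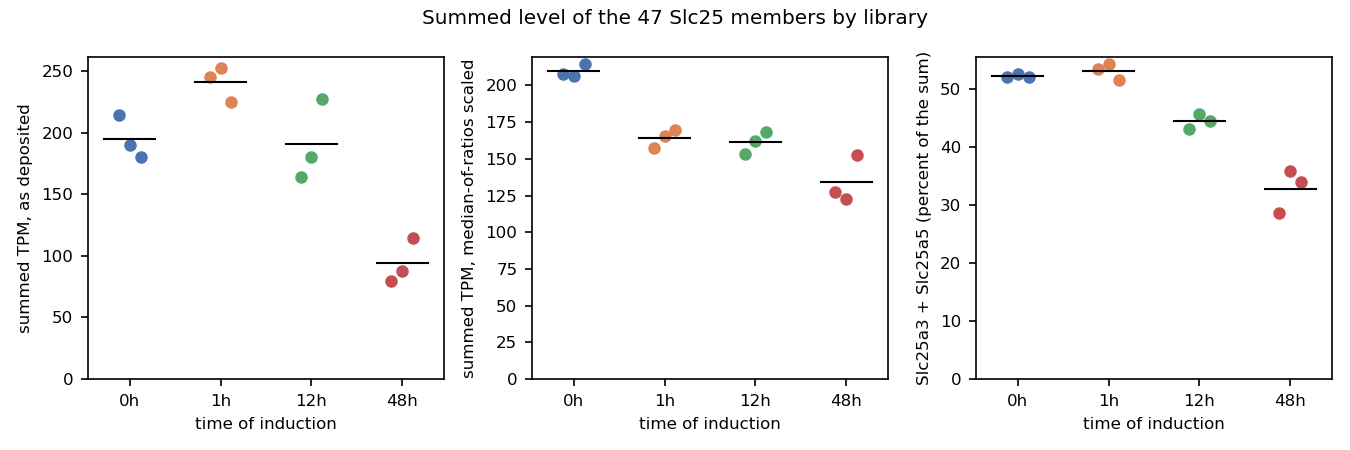
Summed level of the 47 Slc25 members in each library (points) with the mean of each time point (bars), as deposited TPM, after median-of-ratios scaling, and as the percent of the sum held by Slc25a3 and Slc25a5. The 48h libraries lie below all 0h libraries in each panel. Ucp2 is not in the sums.

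The comparison of 48h with 0h asked which carriers differed between the macrophage-like end of the time course and the Pre-B state. In deposited TPM 12 of 38 members were lower and 2 were higher. After scaling 12 were lower and 7 higher, and the 12 lower members were the same genes. Among all tested genes 27.2% were lower and 15.9% higher as deposited, and 22.0% lower and 24.5% higher after scaling. The share of lower members was 31.6% under both scalings. The median log2 fold change of the members was -0.51 as deposited against -0.18 over all genes, and -0.15 against 0.07 after scaling. For each of the 14 members called under both scalings, the 0h and 48h libraries did not overlap in deposited TPM. These members were chosen by the test on the same libraries, so the lack of overlap is no separate support. The share of all tested genes without overlap was not counted.

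**Figure D2:**
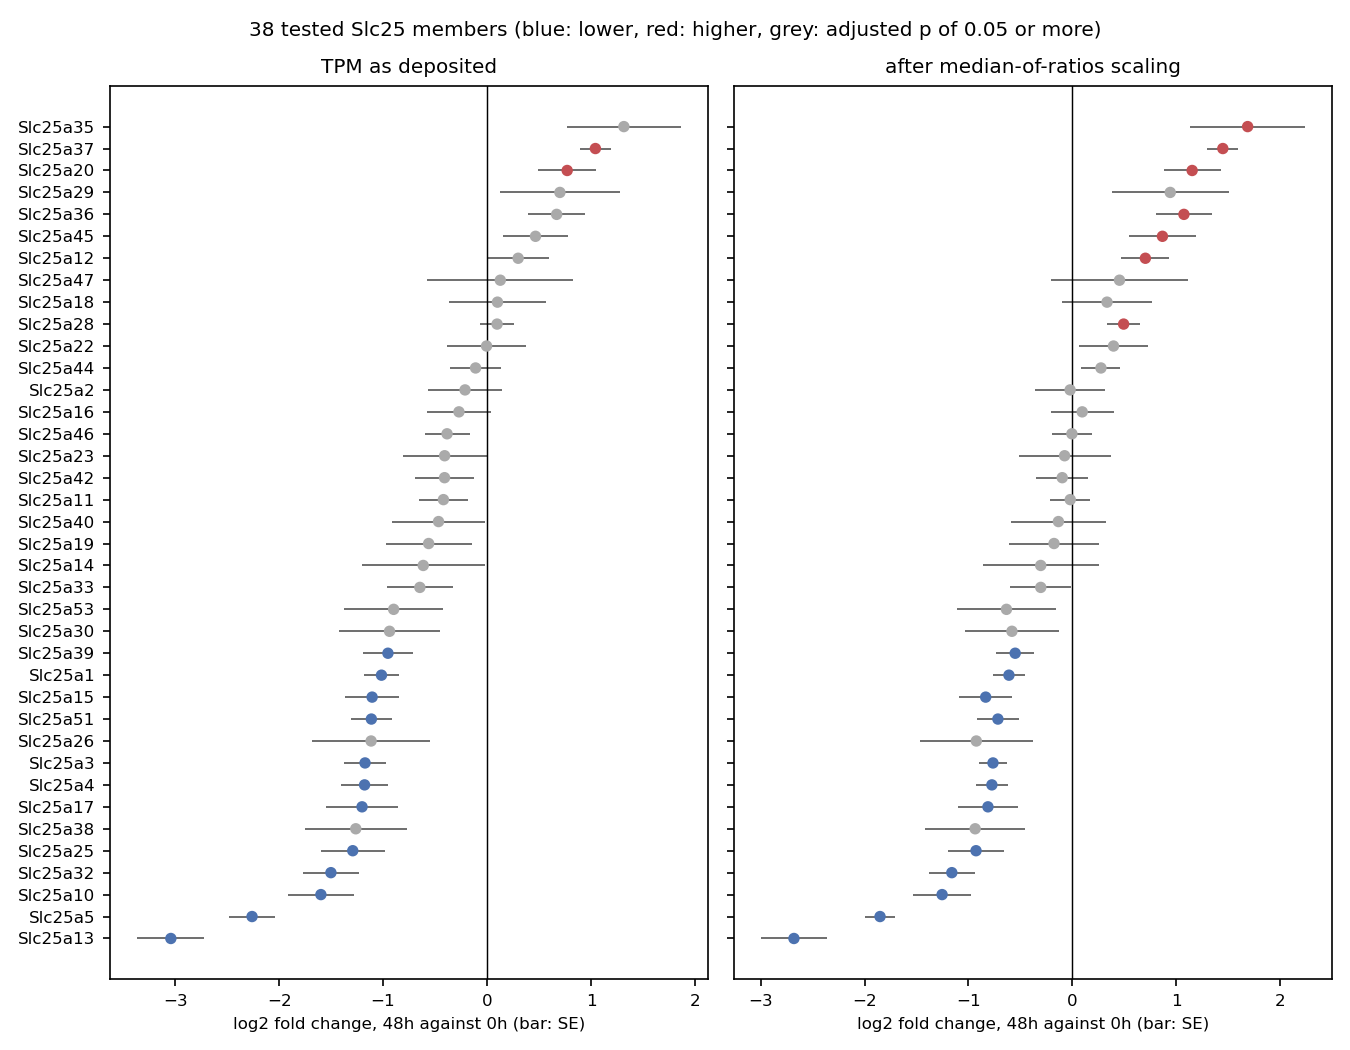
Log2 fold change at 48h against 0h of the 38 tested members (points) with its SE (lines), in deposited TPM (left) and after median-of-ratios scaling (right), where blue is lower, red is higher and grey did not pass the test. Slc25a13 and Slc25a5 lie lowest in both panels, and the 7 red points of the right panel include the 2 of the left panel.

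Of the 11 nucleotide and phosphate carriers, 7 were tested. At 48h 4 of these were lower under both scalings, against 27.2% of all tested genes (22.0% after scaling). No member of this group was higher as deposited, while Slc25a36 was higher after scaling. Slc25a5 (X:36795651-36798807) was at 69.34, 59.59 and 56.82 TPM at 0h and at 9.45, 12.72 and 17.44 at 48h. The highest 48h library was thus far below the lowest 0h library. Its log2 fold change was -2.26 ± 0.22 (SE; adjusted p = 7.34e-06), and -1.85 ± 0.15 after scaling (adjusted p = 1.36e-06). Slc25a4, the other expressed ADP/ATP translocase, was at 11.68, 10.92 and 10.02 TPM at 0h and at 4.21, 4.51 and 5.61 at 48h, a log2 fold change of -1.18 (adjusted p = 0.00117, and -0.77 after scaling). All 3 of its 48h libraries were lower than those of 0h.

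Slc25a3, whose phosphate is joined to ADP by ATP synthase, was at 42.30, 40.35 and 36.86 TPM at 0h and at 13.43, 18.83 and 21.48 at 48h. Its log2 fold change was -1.17 (adjusted p = 0.000507, and -0.76 after scaling). Slc25a25, a calcium-regulated ATP-Mg/phosphate carrier, was at 2.27, 2.77 and 1.80 TPM at 0h and at 0.51, 1.33 and 0.91 at 48h (log2 fold change -1.29, adjusted p = 0.00491, and -0.93 after scaling). Its exons share 379 of 7862 bases with Naif1 on the opposite strand, and reads of both genes cannot be told apart there without strand. The pyrimidine nucleotide carrier Slc25a36 was at 3.73, 2.09 and 2.66 TPM at 0h and at 4.59, 5.03 and 3.77 at 48h. Its libraries did not overlap, its log2 fold change of 0.67 did not pass as deposited (adjusted p = 0.0678), and the 1.08 after scaling did (adjusted p = 0.00627). Slc25a33, the related pyrimidine carrier, had a log2 fold change of -0.65 at 48h that did not pass.

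**Figure D3:**
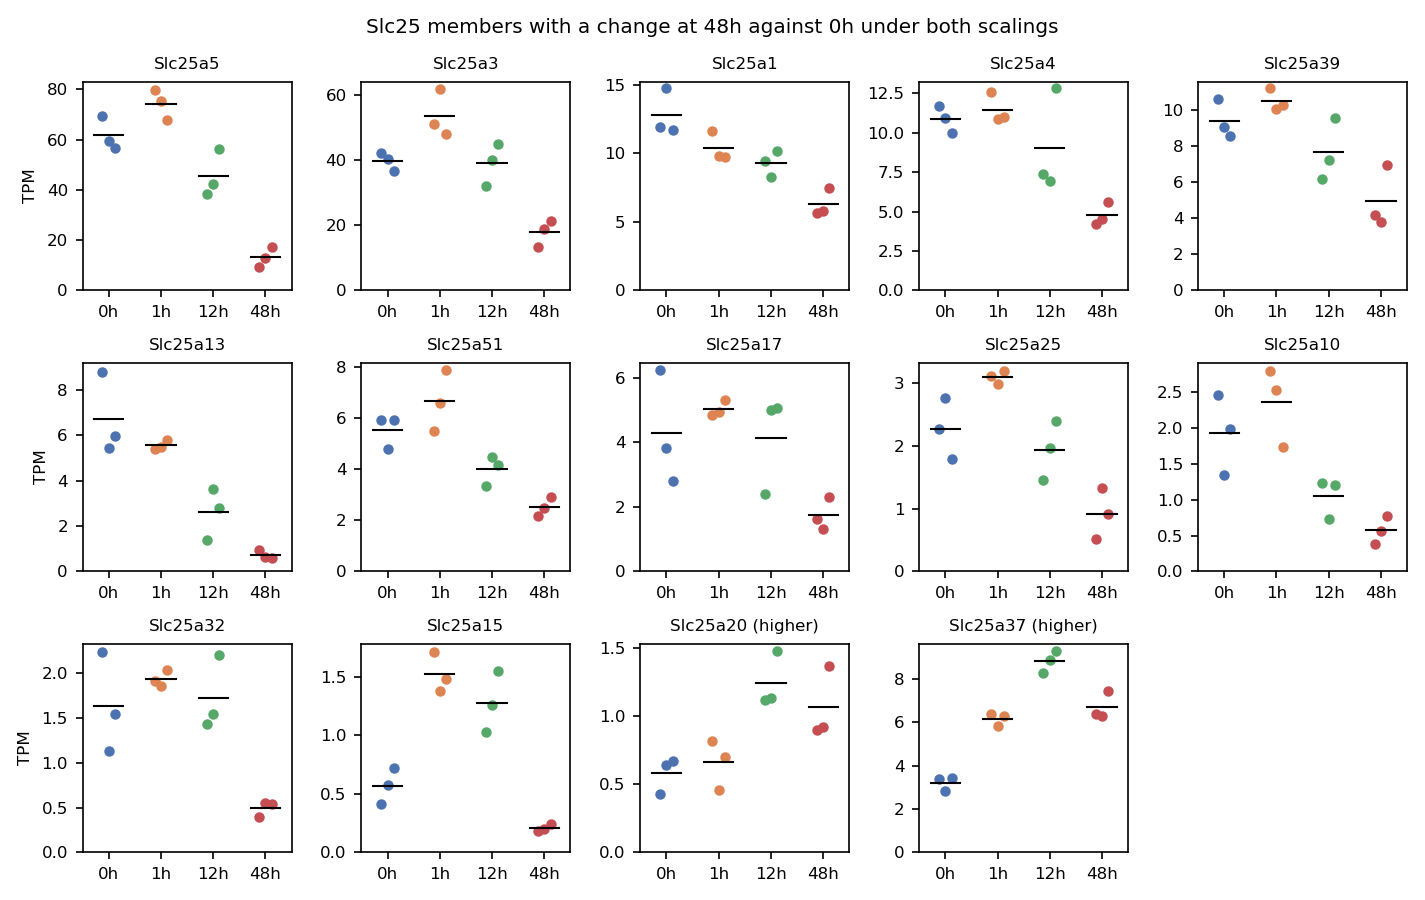
TPM of the 14 members that were lower or higher at 48h than at 0h under both scalings, by time point, with 1 point per library and the mean as a bar. In the 12 panels of lower members every 48h point is below every 0h point, and in the Slc25a20 and Slc25a37 panels every 48h point is above. The members shown were chosen by the test on these same libraries.

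Carboxylate and amino acid carriers numbered 14, of which 13 were tested. Slc25a1, Slc25a10, Slc25a13 and Slc25a15 were lower at 48h under both scalings and Slc25a20 was higher. Over all tested genes 27.2% were lower and 15.9% higher (22.0% and 24.5% after scaling). Slc25a13 (citrin, 6:6041218-6217173) had the largest change of the family. It was at 8.80, 5.43 and 5.97 TPM at 0h and at 0.95, 0.64 and 0.59 at 48h, with all 48h libraries below 1 TPM. The log2 fold change was -3.04 ± 0.32 (SE; adjusted p = 1.44e-05), and -2.68 after scaling (adjusted p = 3.76e-05). Slc25a12 (aralar, 2:71271063-71367749) exchanges the same substrates. It was at 5.17, 2.60 and 3.11 TPM at 0h, at 5.98, 7.62 and 12.55 at 12h and at 4.16, 3.87 and 4.93 at 48h. The 12h libraries lay above those of 0h, and the 48h libraries overlapped them. Against 0h its log2 fold change after 48h was 0.30 (adjusted p = 0.451) as deposited and 0.70 (adjusted p = 0.0268) after scaling.

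Slc25a1 exports citrate, from which ATP-citrate lyase makes cytosolic acetyl-CoA. It was at 11.96, 14.79 and 11.68 TPM at 0h and at 5.65, 5.80 and 7.45 at 48h, with a log2 fold change of -1.02 (adjusted p = 0.000504, and -0.61 after scaling). Its libraries at 48h were all lower. Slc25a10, the dicarboxylate carrier, was at 2.46, 1.35 and 1.99 TPM at 0h and at 0.38, 0.57 and 0.77 at 48h (log2 fold change -1.60, adjusted p = 0.00164, and -1.25 after scaling). It shares 228 exon bases with Gm11788 on the opposite strand. Slc25a20, the carnitine/acylcarnitine carrier of fatty acid oxidation, was at 0.43, 0.64 and 0.67 TPM at 0h and at 0.90, 0.92 and 1.37 at 48h. The groups did not overlap, and the log2 fold change of 0.77 passed narrowly (adjusted p = 0.0447, and 1.16 and adjusted p = 0.00477 after scaling). The call of Slc25a20 in deposited TPM was lost when any 1 of the 6 libraries was left out, with adjusted p up to 0.147 over all alternatives. The glutamate carrier Slc25a22 had a log2 fold change near 0 as deposited and ranged from 2.52 to 8.58 TPM between its 48h libraries.

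Cofactor, metal and glutathione carriers had 11 members in the table, all tested. Slc25a17, Slc25a32, Slc25a39 and Slc25a51 were lower at 48h under both scalings, and Slc25a37 was higher. Over all tested genes 27.2% were lower and 15.9% higher (22.0% and 24.5% after scaling). Slc25a37 (mitoferrin 1, 14:69241848-69285112) brings iron into the matrix. It was at 3.38, 2.82 and 3.43 TPM at 0h, at 6.38, 5.85 and 6.30 at 1h, at 8.26, 8.88 and 9.32 at 12h and at 6.40, 6.28 and 7.45 at 48h. Every induced library lay above every 0h library. After 48h the log2 fold change was 1.04 ± 0.15 (SE; adjusted p = 0.000159), and 1.45 after scaling (adjusted p = 1.18e-05). Its exons share 381 of 6021 bases with Gm31748 on the opposite strand. Slc25a28 (mitoferrin 2), which has the same cargo, was at 2.09, 2.59 and 2.03 TPM at 0h, at 4.95, 5.29 and 5.26 at 12h and at 2.16, 2.50 and 2.51 at 48h. Its 48h libraries overlapped those of 0h as deposited (log2 fold change 0.10, adjusted p = 0.671), and the value after scaling was 0.49 (adjusted p = 0.0227).

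Slc25a32, which carries folate and FAD, was at 2.24, 1.13 and 1.54 TPM at 0h and at 0.40, 0.55 and 0.54 at 48h (log2 fold change -1.50, adjusted p = 0.000749, and -1.16 after scaling). The NAD carrier Slc25a51 was at 5.92, 4.79 and 5.92 TPM at 0h and at 2.15, 2.48 and 2.92 at 48h (log2 fold change -1.11, adjusted p = 0.000757, and -0.72 after scaling). Its exons share 125 of 5510 bases with Gm25692 on the same strand. Slc25a32 and Slc25a51 both had no overlap between the libraries of the 2 times. Slc25a39, a glutathione carrier, was at 10.57, 9.05 and 8.53 TPM at 0h and at 4.16, 3.76 and 6.96 at 48h (log2 fold change -0.95, adjusted p = 0.00663, and -0.55 after scaling). Slc25a17, a peroxisomal member that carries coenzyme A and other cofactors, was at 6.23, 3.84 and 2.80 TPM at 0h and at 1.63, 1.33 and 2.30 at 48h. Its log2 fold change was -1.20 (adjusted p = 0.0137, and -0.81 after scaling), and the call was lost without 0h replicate 1 or 48h replicate 2 (adjusted p up to 0.0597).

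The 11 uncoupling protein-like and less studied members included 7 that were tested, and none of these passed at 48h in deposited TPM. Slc25a35 and Slc25a45 were higher after scaling, by 1.69 (adjusted p = 0.026) and 0.87 (adjusted p = 0.0443) on the log2 scale. Slc25a35 lay between 0.07 and 0.50 TPM in the 0h libraries and between 0.47 and 0.66 in those of 48h, and its exons share 1151 of 3677 bases with Rangrf on the opposite strand.

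Paralogues that carry the same or a like substrate were compared as shares of their summed TPM within a library, so that the scaling between libraries cancels. Slc25a12 made 37.0, 32.4 and 34.3% of the aspartate/glutamate carrier sum at 0h, 41.7, 44.1 and 41.3% at 1h, 81.1, 67.6 and 81.8% at 12h and 81.4, 85.8 and 89.3% at 48h. The larger share thus passed from Slc25a13 to Slc25a12 between 1h and 12h, and the 48h mean was 51.0 percentage points above that of 0h. Slc25a5 made 85.0 ± 0.536% of the ADP/ATP translocase sum at 0h and 72.9 ± 3.34% at 48h (SD, n = 3), with no overlap. Slc25a37 made 58.9 ± 5.90% of the mitoferrin sum at 0h and 73.7 ± 1.88% at 48h, and Slc25a36 made 75.2 ± 5.56% of the pyrimidine carrier sum at 0h and 88.6 ± 5.78% at 48h (SD, n = 3). In these 4 sets the 0h and 48h libraries did not overlap, but only narrowly for Slc25a36 (at most 81.6% at 0h, at least 82.1% at 48h). The exact permutation test gave p = 0.1 for each, two-sided, which is the smallest p that 3 libraries against 3 allow. In the other 5 sets the libraries overlapped. Slc25a39 stayed between 91.2 and 93.0% of its sum with Slc25a40 in the means of all time points, and Slc25a22 between 93.2 and 97.4% of its sum with Slc25a18.

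**Figure D4:**
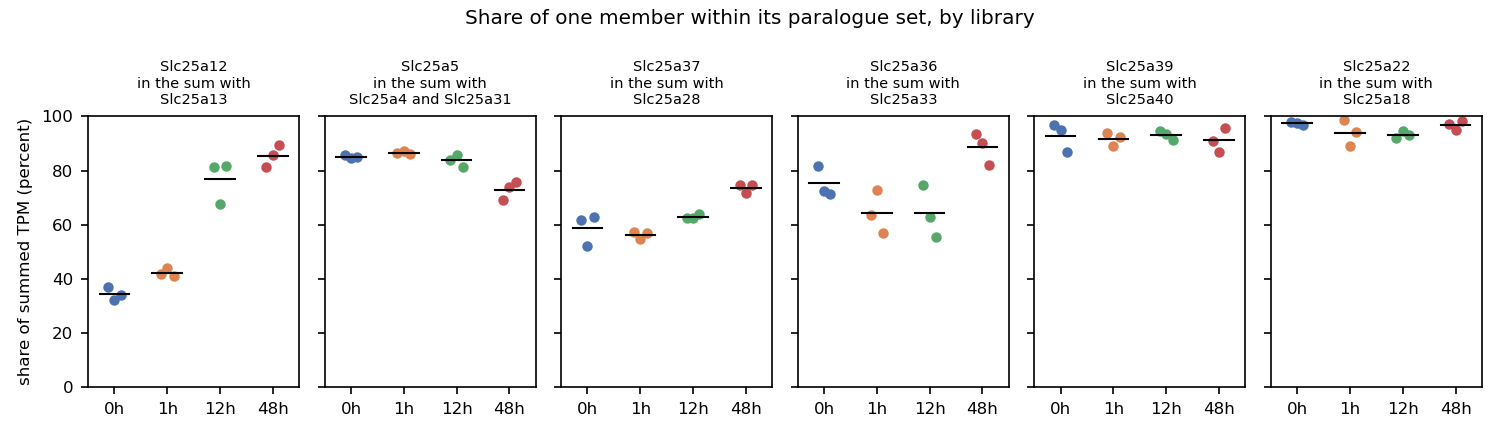
Share of 1 member in the summed TPM of its paralogue set, in percent, with 1 point per library and the mean as a bar at each time point. Slc25a12 goes from a mean of 34.5% at 0h to 85.5% at 48h, while Slc25a39 and Slc25a22 keep over 90% in the mean of every time point.

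The 1h libraries were the first taken after induction. In deposited TPM 6 of 38 members were higher and 0 lower, against 24.1% and 1.41% of all tested genes. After scaling 0 were higher and 2 lower, against 5.42% and 4.92%, and no member was called the same way under both scalings. limma gave an unadjusted p under 0.05 for 0 lower members as deposited and for 4 higher members after scaling. The 6 deposited calls were Slc25a15, Slc25a16, Slc25a28, Slc25a29, Slc25a33 and Slc25a37, and all 6 lost their call under scaling with log2 fold changes between 0.28 and 1.68. Slc25a28 was at 4.78, 4.82 and 4.79 TPM at 1h, above its 3 libraries of 0h, with a log2 fold change of 1.08 (adjusted p = 0.000988) and 0.43 after scaling (adjusted p = 0.113). Slc25a37 had a log2 fold change of 0.93 (adjusted p = 0.00167, and 0.28 after scaling). For Slc25a33 it was 1.27 (adjusted p = 0.0153, and 0.65 after scaling), and for Slc25a16 1.04 (adjusted p = 0.0291, and 0.42 after scaling). The calls of Slc25a33 and Slc25a16 passed in 11 and 8 of 15 alternatives. Slc25a29, a basic amino acid carrier, was at 0.00, 0.06 and 0.15 TPM at 0h and at 0.75, 0.62 and 0.55 at 1h (log2 fold change 2.21, adjusted p = 0.0176), and this call was also lost without 0h replicate 1, 1h replicate 1 or 1h replicate 2. The 2 lower members after scaling were Slc25a1 (log2 fold change -0.95, adjusted p = 0.00237) and Slc25a4 (-0.58, adjusted p = 0.0409, where the deposited value was 0.08).

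At 12h, midway in the conversion, 7 members were higher and 1 lower in deposited TPM, against 22.3% and 7.82% of all tested genes. After scaling 5 were higher and 7 lower, against 16.0% and 14.5%. Slc25a11, Slc25a12, Slc25a15, Slc25a28 and Slc25a37 were higher under both scalings. Slc25a13 was lower under both. Its 12h libraries were at 1.39, 3.65 and 2.80 TPM, below those of 0h, with a log2 fold change of -1.40 (adjusted p = 0.00704, and -1.73 after scaling). Slc25a11, the 2-oxoglutarate/malate carrier, was at 5.10, 3.45 and 4.15 TPM at 0h and at 7.44, 6.86 and 9.62 at 12h (log2 fold change 0.90, adjusted p = 0.0134, and 0.57 and adjusted p = 0.0441 after scaling). It shares 189 of 2120 exon bases with Rnf167 on the opposite strand. Slc25a12 had a log2 fold change of 1.23 (adjusted p = 0.00823, and 0.90 after scaling), Slc25a37 of 1.43 (adjusted p = 3.71e-05, and 1.10 after scaling) and Slc25a28 of 1.18 (adjusted p = 0.000229, and 0.85 after scaling). The Slc25a11 call was lost without 0h replicate 2 or 12h replicate 3 (adjusted p up to 0.0564), and the calls of Slc25a12 (adjusted p = 0.0658) and Slc25a13 (adjusted p = 0.0545) in limma fits of only the 6 libraries compared. Slc25a20 and Slc25a33 were called higher as deposited only, and Slc25a1, Slc25a4, Slc25a5, Slc25a10, Slc25a39 and Slc25a51 were called lower after scaling only. The log2 fold change of Slc25a33 was 1.15 (adjusted p = 0.0191) as deposited and 0.83 (adjusted p = 0.0526) after scaling.

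Slc25a15, the ornithine/citrulline carrier (8:22375551-22398597), was higher at 12h and lower at 48h than at 0h under both scalings. It was at 0.41, 0.58 and 0.72 TPM at 0h, at 1.71, 1.38 and 1.48 at 1h, at 1.03, 1.26 and 1.55 at 12h and at 0.18, 0.20 and 0.24 at 48h. Libraries of 1h and 12h lay above those of 0h, and those of 48h lay below. Its log2 fold change against 0h was 1.30 at 1h (adjusted p = 0.00494, and 0.69 and adjusted p = 0.12 after scaling), 1.05 at 12h (adjusted p = 0.01, and 0.74 and adjusted p = 0.0477 after scaling) and -1.11 at 48h (adjusted p = 0.00448, and -0.83 and adjusted p = 0.0196 after scaling).

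Between 12h and 48h, 17 members were lower and 0 higher in deposited TPM, against 31.7% and 4.10% of all tested genes. After scaling 5 were lower and 1 higher, against 11.9% and 10.5%. limma gave an unadjusted p under 0.05 for 0 higher members as deposited. Slc25a5, Slc25a11, Slc25a15, Slc25a32 and Slc25a33 were lower under both scalings, and Slc25a36 was the member higher after scaling (log2 fold change 0.94, adjusted p = 0.0269). Slc25a33 was at 1.42, 2.56 and 2.52 TPM at 12h and at 0.33, 0.54 and 0.82 at 48h, which do not overlap (log2 fold change -1.80, adjusted p = 0.0012, and -1.14 after scaling). Slc25a33 shares 281 of 1887 exon bases with Gm13068 on the opposite strand. Slc25a11 returned to 2.57, 2.79 and 4.15 TPM at 48h, overlapping its 0h libraries (log2 fold change against 12h -1.32, adjusted p = 0.00114). After scaling the change was -0.59 and passed narrowly (adjusted p = 0.0489). The comparison shares its 48h libraries with that of 48h against 0h.

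Genes that work with the carriers were counted in the same fit at 48h against 0h. In it, 27.2% of all tested genes were lower as deposited and 22.0% after scaling. Of 13 genes of the carrier import machinery, 10 were lower as deposited and 9 after scaling, with a median log2 fold change of -1.29 (-0.91 after scaling). Tomm20, an import receptor of the outer membrane, was at 25.25, 23.19 and 23.85 TPM at 0h and at 2.76, 1.68 and 4.76 at 48h (log2 fold change -3.05, adjusted p = 1.76e-05). The small chaperone gene Timm8a1 fell by 4.16 on the log2 scale and Timm9 by 3.27, and each was listed at 0 in 1 of the 3 libraries of 48h.

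Of 13 tested carriers and channels of mitochondria with other gene names, 5 were lower at 48h as deposited, and 4 lower and 2 higher after scaling. Shares over all tested genes were 27.2% lower and 15.9% higher as deposited, and 22.0% and 24.5% after scaling. Sfxn1, a serine carrier, changed by -2.43 (adjusted p = 1.11e-05), and the outer membrane channels Vdac1 and Vdac3 by -1.74 and -1.57. Ucp2, an uncoupling protein of the same family that is named here after its values were seen, was at 194.21, 173.49 and 166.84 TPM at 0h, above every Slc25 member, and at 87.15, 110.30 and 175.66 at 48h, where its libraries overlapped those of 0h (log2 fold change -0.58, adjusted p = 0.0862). Of 29 tested enzymes that use the carried substrates, 17 were lower and 2 higher as deposited, and 15 lower and 2 higher after scaling. The lower enzymes included Shmt2, which makes mitochondrial one-carbon units from serine, at 54.80, 51.62 and 51.29 TPM at 0h and at 0.60, 0.82 and 1.61 at 48h (log2 fold change -5.67, adjusted p = 2.23e-08). Mthfd1l and Mthfd2 of the same folate pathway changed by -3.79 and -2.48. The 2 higher enzymes were Crat and Cpt1a, carnitine acyltransferases, with log2 fold changes of 1.72 (adjusted p = 0.00295) and 1.67 (adjusted p = 0.000192).

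**Figure D5:**
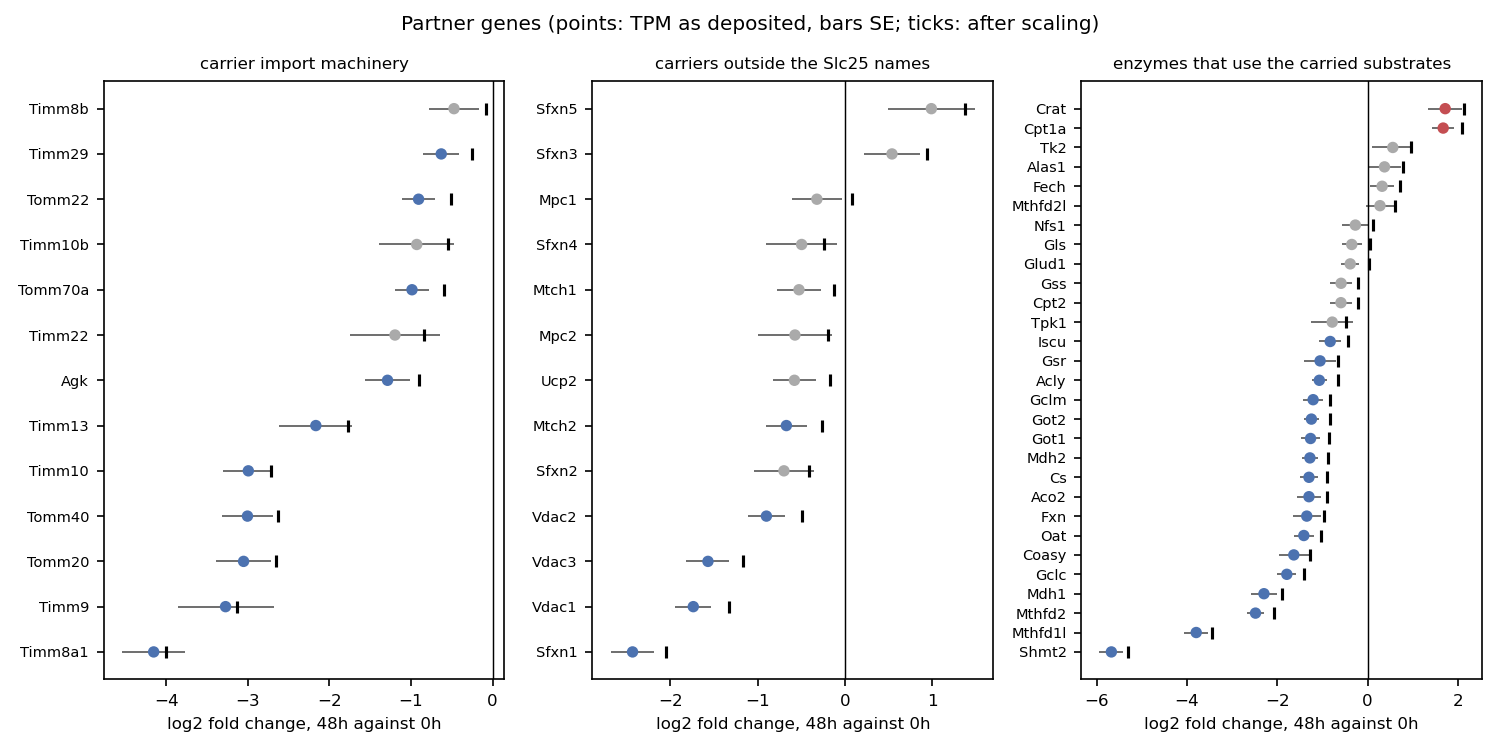
Log2 fold change at 48h against 0h of the import machinery, of carriers with other names and of enzymes that use the carried substrates. Points with SE lines are deposited TPM (blue lower, red higher, grey not passing) and black ticks are the values after scaling, and Shmt2 lies lowest at -5.67.

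Promoter Capture Hi-C (PCHi-C) lists gave the chromatin contacts of the members' start sites, with 2 replicates merged by the authors into 1 list per time point, so that no test of a change was possible. A bait that holds a start site was found for 43 members, and not for Slc25a21, Slc25a29, Slc25a37 and Slc25a44. Members had a median of 7 listed contacts before induction, then 8, 5 and 6 after 1h, 12h and 48h. The 35 tested members with a bait had medians of 9, 9, 7 and 8, where all 11817 tested genes with a bait had 8, 7, 7 and 7. Slc25a3 had the most contacts, with 56, 65, 53 and 68 in the order of the time points, while its TPM was lowest at 48h. Slc25a5 had 7, 22, 9 and 2 contacts at these times. Slc25a39 had 17 in every list. Slc25a13 had 7, 8, 12 and 13, and Slc25a12 had 4, 2, 5 and 5.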

How the data were processed

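RNA-seq of 12 libraries (4 time points, 3 libraries each) and 4 Promoter Capture Hi-C lists were used. Hi-C data were not used. The authors trimmed the reads with Trim Galore, mapped them to mm10 with HISAT2, quantified them with RSEM and deposited TPM, a normalised level that keeps no depth. All 55450 genes of the table matched GENCODE M21, from which coordinates (mm10) and shared exon bases were taken. The library kit does not mark strand as far as it is stated, so reads of overlapping genes cannot be told apart. Promoter Capture Hi-C interactions had been called by CHiCAGO after the authors pooled 2 replicates of a time point. Each interaction of the deposited list of 0h has a CHiCAGO score. The other 3 lists carry whole numbers of an unnamed unit, which were not used. Contacts were counted over baits that hold any annotated start of a gene.

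The study compared time points with a model of read counts, which were not used here. limma 3.58.1 in R 4.3.3 (lmFit, contrasts, eBayes with trend) was fitted to log2(TPM + 0.1) of 16415 genes (mean TPM 0.1 or more), with all 12 libraries in 1 model, and p-values were adjusted over all genes by Benjamini-Hochberg. A call is an adjusted p under 0.05. Median-of-ratios size factors averaged 0.930, 1.47, 1.18 and 0.699 in the order of the time points. Shares used exact permutation tests in Python 3.11.15 with scipy 1.17.1. The low-value filter was set on deposited TPM for both scalings after first counts had been seen, which left the member counts as they were. The model was tested on simulated data. A first simulation missed the recovery limit set for it, after which the simulation and its limits were changed and the model was not, and changes of 2-fold, near the size of many reported here, were mostly missed, so a member that did not pass may still differ. Same-numbered replicates of different time points had r from -0.012 to 0.257 over 18 pairs, 7 of them over 0.1, with the highest between replicate 3 libraries. Differently numbered pairs had r from -0.181 to 0.110 over 36 pairs. Some shared deviation by replicate number is thus present. The numbers were not taken as pairs in the main fit, and a replicate block was fitted as an alternative.

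The members and all gene lists were chosen with earlier results of these data known. Full statistics went to members called at 48h with a mean TPM of at least 1 (up to 10 each way), to up to 5 such members at 1h and at 12h and to paralogue sets, and partner genes were the 3 largest called changes each way per list with that mean. Slc25a11, Slc25a15, Slc25a20, Slc25a29, Slc25a35 and Slc25a45 fall outside this rule and were described after their values were seen. Slc25a39 was outside the 10 largest decreases at 48h and met the rule only through its paralogue set. Sequences are from RefSeq (GRCm38.p6). Some marker genes are not reported here.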

Additional observations from a re-analysis of the deposited data

Results flagged for a closer look

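Slc25a15, the ornithine/citrulline carrier, moved in opposite directions against the same 0h libraries at 1h and at 48h. Its log2 fold change at 48h minus that at 1h was -2.40 ± 0.26 (SE; limma adjusted p = 1.34e-05), and all 3 libraries of 1h lay above, and all 3 of 48h below, the 3 of 0h. With median-of-ratios scaling it came to -1.52 (adjusted p = 0.000615), while the increase at 1h alone did not pass there. A member was flagged if called in opposite directions at 1h and 48h in deposited TPM, with an adjusted p under 0.05 for this difference. The deposited p-value of the difference thus follows from that choice and is no separate support.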

How the results depend on the processing

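Median-of-ratios scaling gave 0 members higher and 2 lower at 1h (6 and 0 as deposited), 7 lower at 12h (1 as deposited), 7 higher at 48h (2 as deposited), and 1 higher and 5 lower for 48h against 12h (0 and 17 as deposited). TPM rescaled without the 20 most abundant genes gave 0 higher and 1 lower at 1h, 7 lower at 12h, 4 higher at 48h and 7 lower for 48h against 12h. Fits of only the 6 libraries compared gave 0 lower at 12h, 1 higher at 48h and 10 lower for 48h against 12h. At 48h, 1 member was higher with a pseudocount of 0.01, with no filter or beyond a log2 fold change of 1. Median-of-ratios scaling with a mean TPM of at least 1 gave 5 higher, and with the replicate block 7, both settings chosen after seeing the data. The count of lower members at 48h was between 11 and 16 under all 18 alternatives.

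Leaving out 1 library gave 4 to 6 higher and 0 to 0 lower at 1h, 4 to 8 higher and 1 to 2 lower at 12h, 1 to 2 higher and 11 to 16 lower at 48h, and 0 to 0 higher and 9 to 21 lower for 48h against 12h. Without 12h replicate 3 there were 4 higher and 2 lower at 12h and 9 lower for 48h against 12h, which was 10 without 48h replicate 1 or 48h replicate 2. At 48h the higher count was 1 without 0h replicate 2, 48h replicate 1 or 48h replicate 3. Among member values called under either scaling, the sign changed for Slc25a4 at 1h (-0.58 after scaling) and, for 48h against 12h, for Slc25a1 (0.18) and Slc25a51 (0.078). Over all 38 tested members, called or not, the number above 0 was 36 as deposited and 12 after scaling at 1h, and 3 and 16 for 48h against 12h. Of 2228 values of single members under alternatives, 2059 stayed on their side of the threshold with no called value changing sign, while some that passed in neither fit did change sign. With the replicate number as a block, 148 member values stayed on their side of the threshold, 1 lost and 3 gained a call. For the paralogue shares, 108 leave-one-out values were set against the replicate SD. With 3 libraries in a group, leaving out 1 cannot shift a mean by that much, so these values do not test stability. The median of contacts at 0h was 7, and 0 at a CHiCAGO score of at least 10. The number of libraries limits the precision, depth was not used here, and the cause of these shifts was not tested.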
